A study of Mus musculus with 8 samples.

Results

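The immediate early activity genes described here were a set of 10 genes chosen by name: Fos, Fosb, Junb, Egr1, Egr2, Nr4a1, Npas4, Arc, Dusp1 and Ier2. They were 10 of the 19742 genes that could be compared between ages, and each was read by 1 of the 39429 probes on the arrays. RNA came from the hippocampus of wild-type C57BL/6J mice, for which the study names no treatment. Per its methods, the oldest mice were bought at an advanced age and then kept for months in its own holding rooms. The RNA was measured on 1-colour arrays, on which the brightness of a spot reports the abundance of 1 transcript. One group of 4 arrays came from mice at 3 months of age (3M) and the other from mice at 29 months (29M), the age that the study took as the end of the life span of this strain. The labels do not say that each array was 1 animal, so the errors and p-values below measure the spread between samples. In RNA of a whole tissue, fewer cells of a type and less RNA per cell cannot be told apart.

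Immediate early genes are transcribed within minutes of a stimulus, from factors already present in the cell, and their messages decay quickly. In hippocampal neurons calcium entry and kinase signalling reach them through factors such as CREB, which binds the cAMP response element (CRE), and SRF, which binds the CArG box. Most of the 10 encode transcription factors for a later wave of genes, while others act at the synapse or switch the signal off again. Their level at dissection is widely used as a record of recent activity.

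None of the 10 genes passed the test for a difference between 29M and 3M, which asked for an adjusted p under 0.1 (limma, adjusted over all probes) and a log2 change of at least 0.5 in size. Over all genes, 2.73% had a probe past it, and 0.892% had one past it and lower at 29M. By value, 9 of the 10 were lower at 29M, against 47.1% of all genes, and their median log2 change was -0.40, against 0.01 over all genes. The unadjusted p was under 0.05 for 5 of the 10 (Arc, Nr4a1, Npas4, Egr1 and Egr2), all with a lower mean at 29M, against 17.1% of all genes in either direction. The values of the 2 ages overlapped in all 10 genes, while they did not overlap in 11.6% of all genes. One young array, replicate 1 of 3M, was the lowest of its group in all 10 genes. Without it 4 genes passed the test as lower at 29M (Arc, Egr2, Nr4a1 and Npas4), in a fit where 1.75% of all genes had a probe past it and lower at 29M. Leaving out the lowest young array had to move the change of each of the 10 genes down.

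The arrays lay on 3 slides, each of which held both ages. Replicate 1 of 3M had the smallest share of spots well above background, 76.2%, against 78.9% to 85.0% on the other 7, and it was the one array that the scanner software marked for evaluation. All 7 markers of hippocampal neurons were well above background on all 8 arrays, with a median log2 change of 0.04. Their summed level, as a mean deviation over the genes, ran from -0.19 to 0.17 and was lowest of all 8 arrays on replicate 1 of 3M, and its part in the values of the immediate early genes was not tested. A list of 6 general neuronal markers had a median of 0.01. The summed level of that list ran from -0.10 to 0.05 at 3M and from -0.06 to 0.09 at 29M. On replicate 1 of 3M it was 0.05, the highest of the young arrays.

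Promoters were read for the sequences by which CREB and SRF are known to reach such genes. RefSeq promoters (GRCm38.p6) were at hand for 7 of them, and Arc, Egr1 and Ier2 had no entry. The 250 bases before the start were searched on both strands for the full CRE, TGACGTCA, and for its core, TGACG, outside a full CRE. All 7 genes held at least 1 such core in a window, against 18.5% of the 27025 genes in the table. Dusp1 alone of the 7 held a full CRE, which was in the window of 1.77% of all genes. A CArG box was found only for Egr2, in 4 of its 5 listed starts, and in 1.62% of all genes. Several of these Egr2 windows overlap and hold the same box. Boxes further upstream than the 250 bases were not searched for in any gene. Such matches are letters in a window and not measured binding. Windows of 4 genes are shown. Fos and Nr4a1 were chosen as the best known members of their families, and Npas4 for its selective response to neuronal activity. Dusp1 was chosen as the gene with a higher mean at 29M over all arrays. Its log2 change was 0.07 (SE 0.50), and it was -0.50 without replicate 1 of 3M. The windows run 5′ to 3′ toward the start and the capitals mark cores on either strand and, in Dusp1, the full CRE.
Fos, chr12:85473640-85473889, plus strand: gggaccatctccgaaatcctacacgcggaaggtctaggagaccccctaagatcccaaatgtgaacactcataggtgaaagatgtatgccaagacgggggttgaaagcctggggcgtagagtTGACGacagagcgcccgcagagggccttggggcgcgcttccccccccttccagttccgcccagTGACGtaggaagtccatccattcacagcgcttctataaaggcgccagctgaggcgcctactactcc
Nr4a1, chr15:101266596-101266845, plus strand: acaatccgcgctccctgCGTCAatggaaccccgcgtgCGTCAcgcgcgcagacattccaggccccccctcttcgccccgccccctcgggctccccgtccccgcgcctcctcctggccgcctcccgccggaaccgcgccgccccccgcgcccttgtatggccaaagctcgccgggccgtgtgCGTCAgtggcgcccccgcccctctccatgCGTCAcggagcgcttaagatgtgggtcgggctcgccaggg
Npas4, chr19:4989972-4990221, minus strand: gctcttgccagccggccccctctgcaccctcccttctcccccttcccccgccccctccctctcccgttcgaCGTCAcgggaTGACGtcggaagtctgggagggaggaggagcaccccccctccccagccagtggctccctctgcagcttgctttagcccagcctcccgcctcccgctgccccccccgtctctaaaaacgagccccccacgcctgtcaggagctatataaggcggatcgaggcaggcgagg
Dusp1, chr17:26508473-26508722, minus strand: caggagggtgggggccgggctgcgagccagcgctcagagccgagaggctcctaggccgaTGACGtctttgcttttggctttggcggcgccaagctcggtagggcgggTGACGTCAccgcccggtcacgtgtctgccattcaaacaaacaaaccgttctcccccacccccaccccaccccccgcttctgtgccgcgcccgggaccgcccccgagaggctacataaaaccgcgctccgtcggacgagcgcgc
The Fos window holds 2 cores, that of Nr4a1 holds 4 and that of Npas4 holds 2, while Dusp1 has 1 core beside its full CRE.

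**Figure D1:**
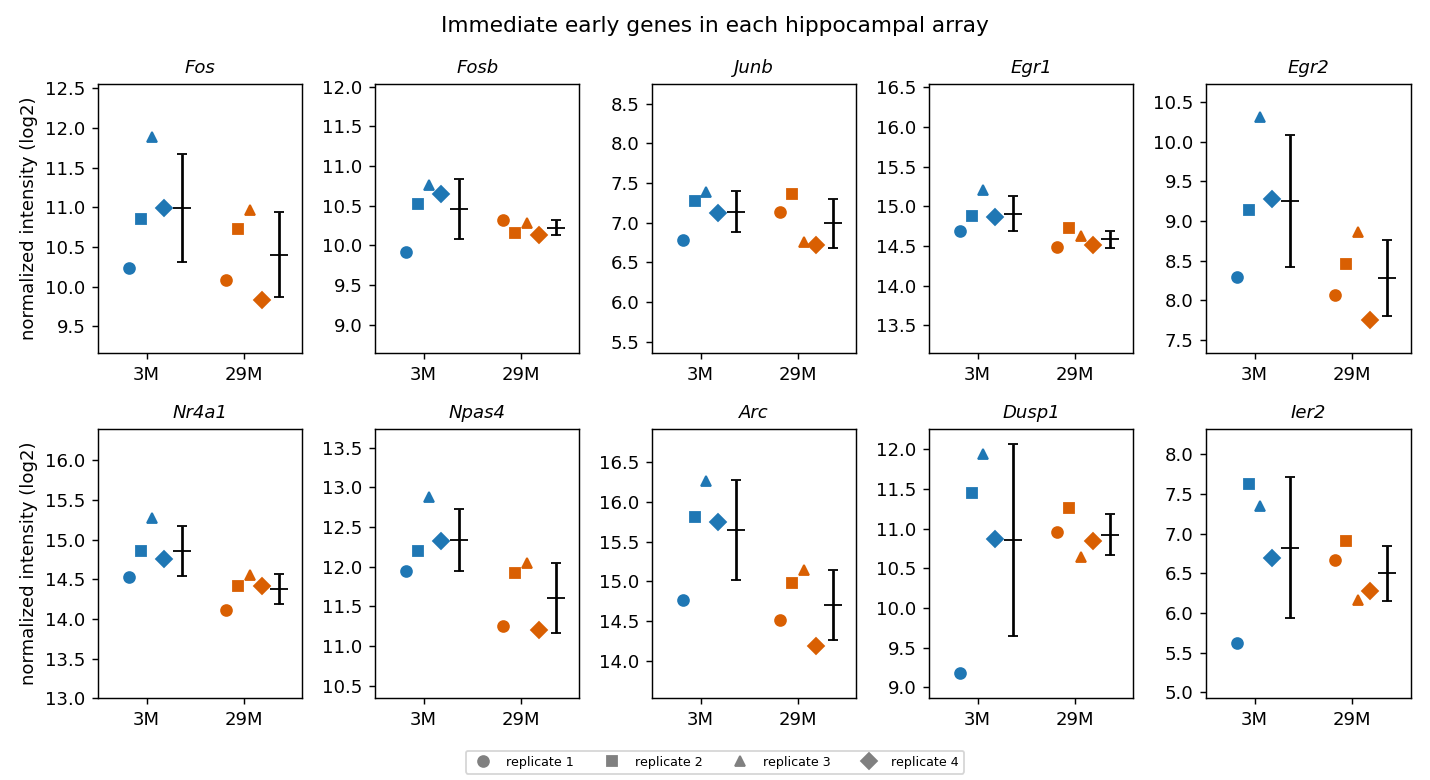
Normalized intensity (log2, vertical axis, the same height of scale in each panel) of the 10 genes on the 4 arrays of 3M (blue) and the 4 of 29M (orange); the marker shape gives the replicate number and the black bar the mean with its SD. Replicate 1 (circle) is the lowest blue point in every panel, and the ages overlap in every panel.

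The plot of values by array shows the data behind these counts, on the log2 scale of normalized intensity, where 1 unit is a factor of 2. Levels are not comparable between genes, since each probe has its own brightness.

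Fos, Fosb and Junb encode subunits of AP-1, a dimeric transcription factor. Fos, the gene most often stained to map active neurons, read 10.24, 10.85, 11.89 and 10.99 in replicates 1 to 4 of 3M, and 10.08, 10.72, 10.97 and 9.83 in those of 29M. The young array of replicate 3 stood above all others and the remaining values of the 2 ages were interleaved. Its mean was 10.99 ± 0.68 at 3M and 10.40 ± 0.53 at 29M (SD, n = 4 each), a log2 change of -0.59 (SE 0.35, 95% interval -1.38 to 0.20), with an adjusted p of 0.434 from limma. The probe for Fos is spotted 10 times on each array, so its reading error could be measured. The SD over the 10 spots ran from 0.18 to 0.23 within an array, against 0.61 between arrays of the same age, and the spread between arrays was thus larger than the spread between spots.

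Fosb, whose product is a close relative of Fos and includes a stable short form, read 9.91, 10.52, 10.76 and 10.65 at 3M and 10.32, 10.16, 10.28 and 10.13 at 29M. The 4 aged arrays lay within 0.19 of each other, between the low replicate 1 of 3M and the other 3 young arrays. The log2 change was -0.24 (SE 0.17), with an adjusted p of 0.515. Junb, an AP-1 partner, read 6.79, 7.28, 7.38 and 7.12 at 3M and 7.14, 7.36, 6.75 and 6.73 at 29M, and the 2 ages covered nearly the same range. Its log2 change was -0.15 (95% interval -0.54 to 0.24, adjusted p 0.718).

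Egr1 and Egr2 encode zinc finger transcription factors, and Egr1 is needed for lasting forms of synaptic potentiation. Egr1 read 14.69, 14.87, 15.21 and 14.87 at 3M and 14.48, 14.72, 14.63 and 14.51 at 29M. In all, 3 of the young arrays were above all aged ones, and replicate 1 of 3M was below replicate 2 of 29M. The change was small in size, at -0.32 (SE 0.12), which is a ratio of 0.799 for 29M over 3M, and had an adjusted p of 0.209. The exact two-sided permutation test over the 8 arrays gave a p of 0.0571 for it, and the smallest p that 4 against 4 arrays allow is 0.0286.

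For Egr2 the differences were wider: it read 8.29, 9.14, 10.31 and 9.28 at 3M and 8.07, 8.45, 8.87 and 7.75 at 29M. Again 3 young arrays were above every aged one, and replicate 1 lay below 2 of the aged arrays. The log2 change of -0.97 (SE 0.39, 95% interval -1.84 to -0.10) was the largest in size of the 10, a ratio of 0.510, with an adjusted p of 0.246. The young arrays alone spanned a factor of 4.06.

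Nr4a1 encodes an orphan nuclear receptor that takes part in limiting excitatory synapses. It read 14.53, 14.85, 15.28 and 14.75 at 3M and 14.12, 14.42, 14.55 and 14.42 at 29M, and the ages overlapped by 1 pair, with replicate 1 of 3M just below replicate 3 of 29M. The log2 change was -0.48 (SE 0.16, 95% interval -0.84 to -0.12), with an adjusted p of 0.178 and an exact permutation p of 0.0571.

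Npas4, a transcription factor induced by calcium entry into neurons and little by other signals, read 11.94, 12.19, 12.88 and 12.33 at 3M. At 29M it read 11.25, 11.92, 12.04 and 11.19. Replicates 1 and 4 of 29M were lower than all other arrays, and replicate 3 of 29M was above replicate 1 of 3M. The change was -0.73 (SE 0.25, 95% interval -1.29 to -0.18), a ratio of 0.601, with an adjusted p of 0.179 and an exact permutation p of 0.0571.

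Arc encodes a synaptic protein that drives the removal of AMPA receptors, and its message travels to active dendrites. It read 14.77, 15.82, 16.27 and 15.74 at 3M and 14.51, 14.98, 15.15 and 14.18 at 29M. Here too 3 young arrays were above every aged array, and replicate 1 of 3M lay between aged ones. The means were 15.65 ± 0.63 and 14.71 ± 0.44 (SD, n = 4 each), which gave a log2 change of -0.94 (SE 0.31, 95% interval -1.65 to -0.24) and a ratio of 0.520. The adjusted p was 0.178 and the exact permutation p 0.0857.

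Dusp1, a phosphatase that switches off MAP kinases, stood apart in its values. It read 9.17, 11.45, 11.94 and 10.87 at 3M and 10.95, 11.25, 10.64 and 10.85 at 29M. The young arrays spanned a factor of 6.82, with replicate 1 far below and replicate 3 above all others, while the aged arrays spanned a factor of 1.53. Its log2 change was 0.07, with an interval from -1.05 to 1.18 that held changes of either sign (SE 0.50, adjusted p 0.965).

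Ier2, a nuclear protein of less settled function, read 5.63, 7.62, 7.35 and 6.69 at 3M and 6.68, 6.91, 6.16 and 6.27 at 29M. It was not well above background on replicate 1 of 3M, and the aged arrays lay inside the young range. The change was -0.32 (SE 0.39, 95% interval -1.19 to 0.55, adjusted p 0.726).

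**Figure D2:**
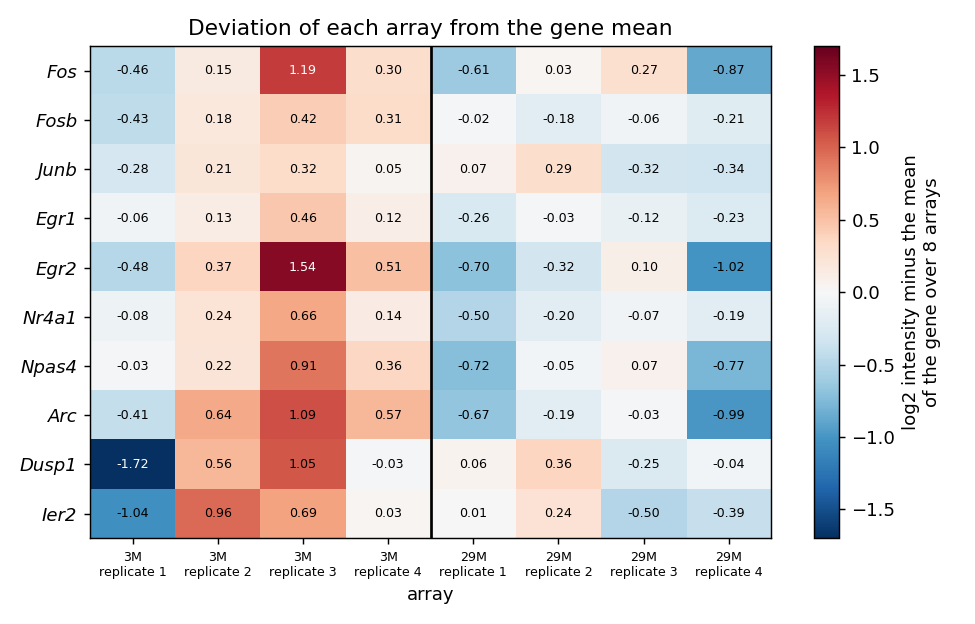
Log2 intensity of each gene (rows) on each array (columns) minus the mean of the gene over the 8 arrays, in colour and as numbers; the black line parts 3M from 29M. Replicate 3 of 3M is above the mean in all 10 genes and replicate 1 of 3M below it in all 10.

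The array that stood highest or lowest was shared by many of the genes, as the map of deviations shows. Among the young arrays, replicate 1 was lowest in 10 of 10 genes, by 0.73 on average below its group mean. Replicate 3 was highest in 9 of 10, by 0.60 on average above the group mean, and Ier2 was highest in replicate 2. The aged arrays had a mixed order. Replicate 4 of 29M was lowest for 6 genes (Fos, Fosb, Junb, Arc, Egr2 and Npas4), while replicate 3 of 29M was highest for 5 (Fos, Arc, Egr2, Nr4a1 and Npas4) and lowest for Dusp1 and Ier2.

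Compared with probes of similar brightness, most of the 10 varied more between arrays of one age. The pooled SD of 7 of them was above the 90th percentile of the probes nearest in mean intensity (250 on each side), from the 91.0th for Nr4a1 to the 99.4th for Arc. The other 3 were Junb (80.4th), Fosb (78.0th) and Egr1, which was below Fosb. The range over the 4 young arrays exceeded the change with age in all 10 genes, and the range over the 4 aged arrays did in 7. The SD was larger at 3M than at 29M in 8 of 10, against 57.9% of all genes.

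Over the 8 arrays the 10 genes could be loosely grouped by likeness. Fos, Egr1, Egr2, Nr4a1, Npas4 and Arc followed each other with Pearson r from 0.86 to 0.97. Junb, Dusp1 and Ier2 followed each other with r from 0.73 to 0.89, and r between a gene of the first set and one of the second was from 0.34 to 0.67. Fosb lay between, with r from 0.66 to 0.84 to the first set and from 0.62 to 0.76 to the second. After the mean of each age was removed, the sets were less distinct for Dusp1. Its r was then 0.53 (Npas4) to 0.79 (Arc) to the first set, 0.87 to Fosb, 0.77 to Junb and 0.94 to Ier2. Junb and Ier2 had r from 0.33 to 0.70 to the first set. In likeness to Dusp1 over the 8 arrays, Ier2 ranked 400th and Junb 1324th. These r are descriptions over n = 8 arrays that share slides and, at 3M, a library low in all 10 genes, and the sets were read off the same values.

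Among the other 16452 genes with a probe well above background on all 4 arrays of an age, the 5 nearest to Fos were Zscan20 (r 0.98), Egr2 (0.97), Gtpbp8 (0.96), Gast (0.96) and Ngrn (0.95). Npas4 ranked 8th, Arc 12th, Egr1 26th and Nr4a1 93rd in likeness to Fos, whereas Junb ranked 1541st and Dusp1 1735th. For Arc the nearest were Zfp933 (0.97), Egr2 (0.97), Khdc3 (0.96), Tmem86b (0.96) and Atp2b4 (0.96). After the 2 arrays with the most extreme Fos values (replicate 3 of 3M and replicate 4 of 29M) were left out, r to Fos over 6 arrays was 0.90 for Egr2, 0.83 for Npas4, 0.83 for Arc, 0.74 for Nr4a1, 0.69 for Egr1 and 0.12 for Junb. Over these 6 arrays Npas4 ranked 74th, Arc 84th, Nr4a1 280th and Egr1 493rd. Dusp1 had an r to Fos of 0.56 over 8 arrays and 0.45 over these 6, while its r to Ier2 was 0.94 without the 2 arrays most extreme for Dusp1.

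**Figure D3:**
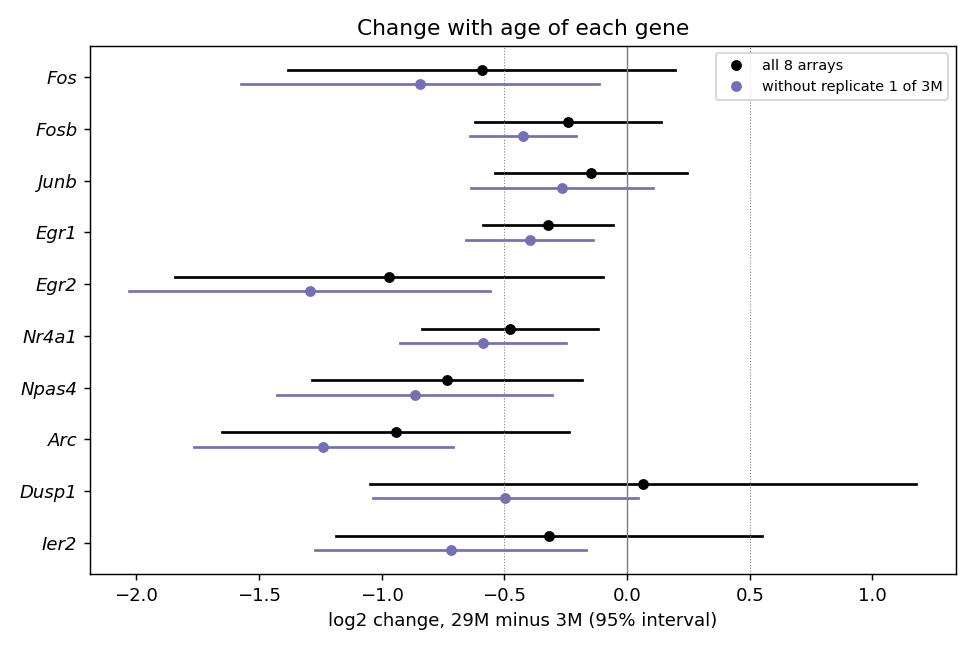
Log2 change of each gene, 29M minus 3M, with its 95% interval from limma, over all 8 arrays (black) and without replicate 1 of 3M (purple); dotted lines mark a change of 0.5 in either direction. Over all arrays 9 points lie below 0, and without that array all 10 do.

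Leaving out each array in turn showed how far 1 library set these results. Without replicate 1 of 3M, Arc was lower at 29M by a log2 change of -1.24 (SE 0.23, adjusted p 0.0281 from limma), Egr2 by -1.29 (SE 0.32, adjusted p 0.0691), Nr4a1 by -0.59 (SE 0.15, adjusted p 0.0725) and Npas4 by -0.87 (SE 0.25, adjusted p 0.0983). These 4 passed the test, against the 1.75% of all genes given above. Egr1 had an adjusted p of 0.0991 with a change of -0.40, and Fosb one of 0.0505 with -0.42, both under the size of 0.5. Fos (-0.84, adjusted p 0.190), Ier2 (-0.72, 0.148), Dusp1 (-0.50, 0.282) and Junb (-0.27, 0.401) did not pass either.

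Replicate 1 of 3M was the lowest young array in all 10 genes, so leaving it out had to lower each of their changes. The shares over all genes carry no such choice, so a larger share here is not separate evidence of a difference. Without that array the 2 ages did not overlap in 6 of the 10 genes (Fosb, Arc, Egr1, Egr2, Nr4a1 and Npas4), against 21.2% of all genes. An unadjusted p under 0.05 from limma was found for 8 of 10, against 20.6%. The count of 5 under that p over all arrays was 3 without replicate 3 of 3M, replicate 1 of 29M or replicate 4 of 29M, and 3 with slide as a fixed block. With any of the other 7 arrays left out, none of the 10 passed the test. The sign of the change of Dusp1 turned without replicate 1 of 3M, and also without replicate 2 of 29M (-0.05). The part of the lower signal of replicate 1 of 3M (76.2% of spots well above background) in its low values for these genes was not tested.

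**Figure D4:**
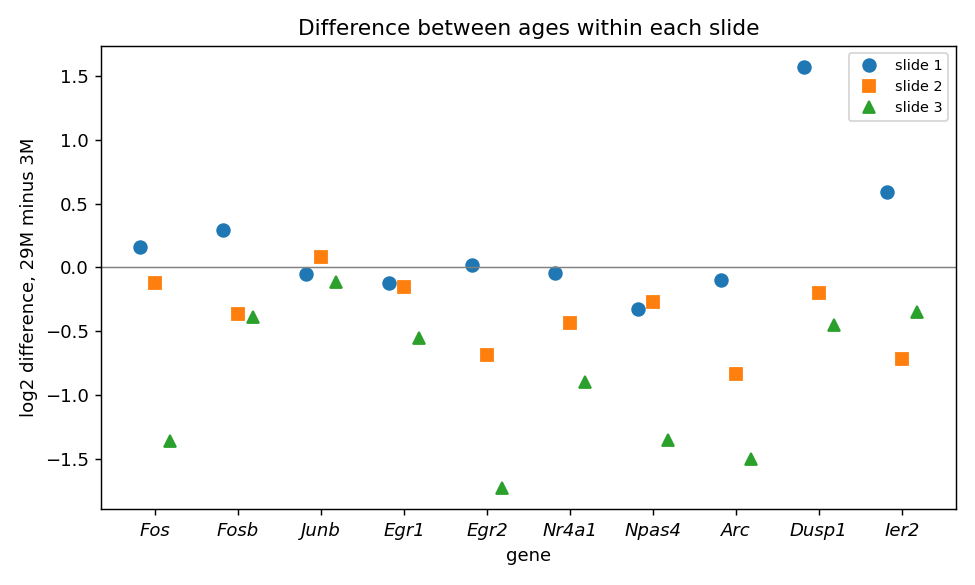
Log2 difference of each gene, 29M minus 3M, within slide 1 (circles), slide 2 (squares) and slide 3 (triangles). All 10 triangles lie below 0, as do 9 squares and 5 circles, and Dusp1 on slide 1 is at 1.57.

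Replicate 1 of 3M was also the one young array on slide 1, beside replicates 3 and 4 of 29M. Slide 2 held replicate 2 of each age, and slide 3 held replicates 3 and 4 of 3M and replicate 1 of 29M. The median difference over the 10 genes was -0.01 on slide 1, -0.32 on slide 2 and -0.73 on slide 3, and 5, 9 and 10 genes were below 0. Arc differed by -0.10, -0.83 and -1.50 on the 3 slides, Egr2 by 0.02, -0.69 and -1.73, and Npas4 by -0.33, -0.27 and -1.35. Egr1, Nr4a1, Npas4 and Arc were below 0 on each slide. The plot of differences within slides shows Fos (0.16, -0.12 and -1.36) and Dusp1 (1.57, -0.20 and -0.45) with both signs. With slide as a fixed block, Arc changed by -0.81 (adjusted p 0.250), Npas4 by -0.68 (0.267), Nr4a1 by -0.46 (0.261) and Dusp1 by 0.35 (0.691), and none of the 10 passed.

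Levels of other cell types moved with some of these arrays. The 5 choroid plexus genes, summed, were lowest in replicate 3 of 3M, at a mean deviation of -0.74 against -0.23 to 0.29 on the other 7 arrays, and that array was highest for 9 of the 10 immediate early genes. The 5 microglial markers were at 0.18 in replicate 1 of 3M, against -0.38 to -0.13 in the other young arrays and 0.03 to 0.29 at 29M, and all 5 had higher means at 29M with none past the test. The 5 astrocyte markers had a median of 0.08, and 2 of them were below 0. Gfap alone of these passed the test, as higher at 29M (0.71, adjusted p 0.0235 from limma). The 5 endothelial, 5 oligodendrocyte and 5 choroid plexus markers had medians of 0.11, 0.17 and 0.22 with none past the test, and 3 red blood cell genes had a median of -0.34, also with none past it. Summed, these 3 were highest on replicate 1 of 3M (0.49) and, among the young arrays, lowest on replicate 3 (-0.29), which were the lowest and, for 9 of 10, the highest young arrays of the immediate early genes. Of all 8 arrays these 3 were lowest on replicate 4 of 29M (-0.54), which was itself the lowest aged array for 6 of the 10 immediate early genes. The part of these cell types in the values of the immediate early genes was not tested.

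The wider family was read from lists of other rapid, effector and upstream genes. Of 17 further rapid transcription factors 1 was higher at 29M and 0 were lower, with a median log2 change of 0.04, where over all genes 1.84% were higher and 0.892% lower. An unadjusted p under 0.05 was found for 4 of the 17 (17.1% of all genes). The one that rose was Maff, a small Maf protein that pairs with stress-response factors. It read 8.43, 8.61, 8.85 and 8.59 at 3M and 9.50, 9.54, 9.28 and 9.70 at 29M, with no overlap, a change of 0.88 (SE 0.12) and an adjusted p of 0.0102. Relatives of the 10 genes did not pass: Jun changed by -0.20, Jund by 0.08, Fosl2 by -0.17, Egr3 by 0.10, Egr4 by -0.53 (adjusted p 0.161), Nr4a2 by -0.32 and Nr4a3 by -0.14. Nr4a3 was not well above background on any array. Egr4 read 13.62 on replicate 1 of 3M, 14.24 to 14.45 on the other young arrays and 13.49 to 13.73 at 29M, and its young arrays had the same order as those of Arc while its aged arrays did not. The other probe of a gene could differ, with -0.68 for Fosl2 and 0.23 for Nr4a2.

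Of 17 other rapid response genes, which include phosphatases and growth arrest genes, 0 passed in either direction by limma, 3 of 17 had an unadjusted p under 0.05 (17.1% of all genes), and the median change was -0.03. Among 8 slower effectors 1 passed as lower (0.892% of all genes), and 7 had a lower mean at 29M (47.1% of all genes) with a median of -0.12. That gene was Inhba, a subunit of activin that neurons make after activity. Its values were 11.19, 11.13, 11.32 and 11.36 at 3M and 10.64, 10.85, 10.68 and 10.25 at 29M, with no overlap, and it fell by 0.64 (SE 0.13, adjusted p 0.0480). It did not pass in the fits that blocked on slide (fixed) or on replicate number, when processed signals were set relative to the 75th percentile of each array, or without replicate 2, 3 or 4 of 3M or replicate 1 of 29M. Homer1, a scaffold of the synapse, changed by -0.15 on its brightest probe and by -0.05 to 0.13 on the other 4, and Bdnf, a growth factor released by active neurons, by -0.14 (adjusted p 0.403).

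None of 25 upstream regulators, which include CREB and its coactivators, SRF and its partners, MAP kinases and glutamate receptor subunits, passed the test by limma in either direction. Their changes ran from -0.35 to 0.36 with a median of -0.07, and 4 of 25 had an unadjusted p under 0.05, near the 17.1% of all genes.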

How the data were processed

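Hippocampal RNA was labelled with Cy3 and hybridised to 8 arrays. The intensities were deposited by the authors as scanner output on a linear scale, without normalization across arrays. Per the file headers they came from Agilent Feature Extraction 10.7.3.1. The software version, scanner and design differ from those in the study's methods. The median spot intensity was used, since the mean was not in the files used here. All 8 columns of the deposited series table equalled an array's mean local background (tolerance 0.001), 7 of them that of another sample, with medians from 26.7 to 34.8 scanner units, so the scale, centring and direction of any expression values in it stay unknown and it was not used.

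Control spots and outlier spots (127 to 190 per array) were left out, spots of a probe were averaged, and variance stabilising normalization (own implementation, trimming quantile 0.9, 7 iterations) put values on a log2 scale, which understates changes of dim probes. In limma 3.58.1 (R 4.3.3) an age effect was estimated for each of 39408 probes that had at least 3 usable arrays per age. P-values were adjusted by Benjamini-Hochberg, and a probe passed if its adjusted p was below 0.1 and its log2 change 0.5 or more in size, as in the study's methods. Both steps were tested on simulated data.

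Probes were named through accessions matched to RefSeq genes (GRCm38.p6), which named 26055 of 39429 probes (66.1%) in 19751 genes. No probe or gene coordinates are given, because the array was annotated on another build; those printed are of the RefSeq promoter windows. A gene passed when any of its probes did, and its probe of highest mean stood for it in counts. Slides came from the barcodes in the headers. Promoter windows came from RefSeq, and a match was an exact run of letters on either strand. The number of arrays, 4 per age, limits the precision.

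Members and lists were chosen with earlier results of these data known. Beside the members, the text names list genes that passed, 9 relatives fixed by name whatever their values, and the 5 genes most like Fos and Arc. Egr4 is given by array and genes that passed without 1 array are given as found, which was chosen after their values were seen.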

Additional observations from a re-analysis of the deposited data

How the results depend on the processing

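Each result was recomputed under the other planned settings of normalization, filter, block, prior, probe or threshold and with each of the 8 arrays left out. The direction of all 10 immediate early genes except Dusp1 held under every one of these. The count of the 10 genes lower at 29M stayed at 9 or 10 and their median change between -0.65 and -0.26. None of the 10 passed as higher under any alternative, and none passed as lower except without replicate 1 of 3M, where 4 did. With arrays left out in turn, Arc ranged from -1.24 to -0.74, Egr2 from -1.29 to -0.62, Nr4a1 from -0.59 to -0.34, Npas4 from -0.88 to -0.55, Egr1 from -0.40 to -0.22, Fos from -0.84 to -0.29, Fosb from -0.42 to -0.14, Junb from -0.27 to -0.06, Ier2 from -0.72 to -0.05 and Dusp1 from -0.50 to 0.43. Dusp1 was -0.11 when processed signals were set relative to the 75th percentile of each array, and -0.10 when they were variance stabilised. The cause was not tested.

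The replicate numbers gave no sign of pairing over the probes, though 4 numbers cannot exclude it. Correlations of same-numbered deviations were -0.24, 0.21, -0.23 and 0.07, and 1 of 4 young arrays correlated best with its own number. With the replicate block none of the 10 passed, 266 probes passed as higher and 145 as lower against 491 and 319 without it, and 0 of the slower effectors passed. Replicate 3 was the highest array of both ages for Fos, Arc, Egr2, Nr4a1 and Npas4. The block lowered the SE of Arc from 0.31 to 0.20, of Npas4 from 0.25 to 0.15 and of Fos from 0.35 to 0.20. It also lowered that of Egr2 from 0.39 to 0.23 and of Nr4a1 from 0.16 to 0.10. The SE changed less for Egr1, Dusp1 and Ier2, and was 0.17 in both fits for Fosb and Junb. In that fit 6 of the 10 had an unadjusted p under 0.05 from limma. At an adjusted p under 0.05, 308 probes were higher and 179 lower. With arrays left out, 265 to 825 probes were higher and 135 to 639 lower.

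Inhba was the one effector past the test, and 0 passed when processed signals were set relative to the 75th percentile or with slide as a fixed block. With arrays left out, 0 to 1 effectors, 0 to 1 other rapid response genes, 0 to 1 rapid transcription factors and 0 to 1 upstream regulators were lower, and 1 to 2 rapid transcription factors were higher. Signal over background limits Ier2 on replicate 1 of 3M and Nr4a3 throughout. Ier2 and Junb were dim on the other arrays too. Over the 8 arrays spot intensity ran from 56.5 to 211 for Ier2 and from 109 to 187 for Junb. When processed signals were set relative to the 75th percentile, the SE of Ier2 was 0.83, against 0.39 in the main fit.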
